A study of Caenorhabditis elegans with 4 samples.

Results

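The sites described here are the HTZ-1 peaks that lie near chromosome ends in C. elegans embryos. A peak counted as near an end when its midpoint was at most 500 kb from the left or right end of chromosome II, III, IV, V or X, which gives 10 end zones. The ends of chromosome I were not analysed here. Of the 7546 peaks in the series-wide list (the combined list), 5838 were on these 5 chromosomes and 442 lay in the end zones. The end zones take up 5.87% of the length of the 5 chromosomes and held 7.57% of the combined-list peaks on them. The replicate lists placed 201 of 3017 peaks (replicate 1) and 201 of 2850 peaks (replicate 2) in the same zones.

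All samples came from wild-type N2 embryos, mixed in stage and in sex, kept at 20 °C and fixed with 2% formaldehyde for 30 min. HTZ-1 ChIP used a rabbit polyclonal antibody to the N-terminus of the protein and was done in 2 replicates, with 2 input samples beside them that were not analysed here. The embryos were taken whole, so each peak is an average over cell types and stages. Whether the replicates were separate cultures is not stated, so the spread between them may be technical. Read depth is unknown, and a single peak carries no error of its own.

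HTZ-1 is the worm's form of H2A.Z, a histone variant that takes the place of H2A in certain nucleosomes, often those beside transcription start sites. In the budding yeast Saccharomyces cerevisiae, H2A.Z is known for limiting the spread of silent chromatin from the telomeres. Worm chromosomes are holocentric, with spindle attachment along their whole length, and their ends carry short telomeric repeats joined directly to arms that are rich in other repeats and in repressive histone methylation. Positions are given on WormBase WS220, the build in the file headers. No genome or gene annotation of that build was used, so no bases are printed and the genes at these sites are not named.

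Every end zone held many HTZ-1 sites, and the number differed between ends by several fold. The right end of III was the densest, with 84 combined-list peaks in its 500 kb, and the right end of X the sparsest, with 23. Between them, the combined-list counts were 50 at the right and 48 at the left end of II, 45 at the left and 38 at the right end of IV, and 43 at the left end of III. The left end of X had 41 peaks, the left end of V had 39 and the right end of V had 31. Strong and weak peaks lay side by side at nearly all ends, and in long stretches there were no peaks at all.

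**Figure D1:**
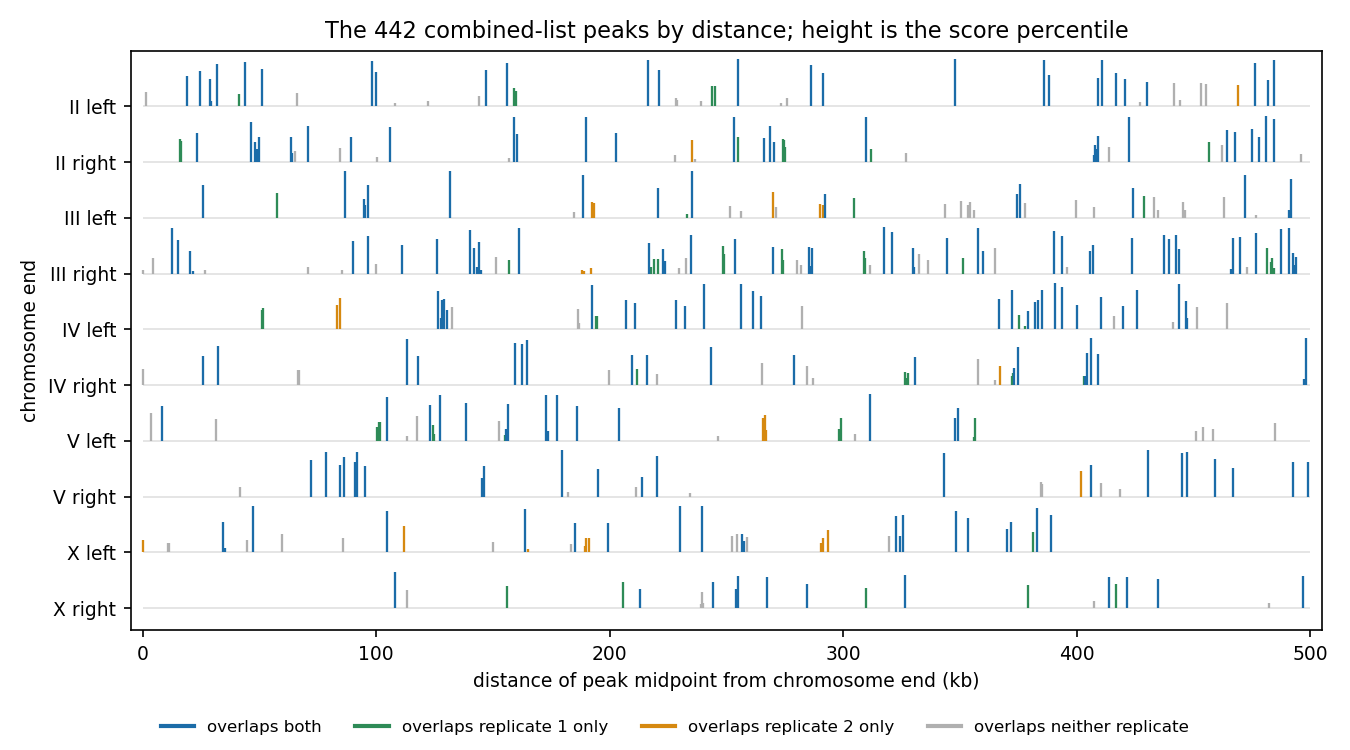
Each vertical line is 1 of the 442 combined-list peaks, placed by the distance of its midpoint from the chromosome end (kb), with a height that gives its score percentile among the 5838 peaks of the 5 chromosomes and a colour that gives the replicate lists it overlaps. The 84 peaks at the right end of III are spread over the zone, the first 107.7 kb at the right end of X hold none, and the lines at the left end of X stop before 400 kb.

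The replicates gave nearly the same number of peaks at most ends. At the right end of III, replicate 1 had 34 peaks and replicate 2 had 35. The left end of II had 26 and 25 peaks, the left end of IV 24 and 23, and the right end of II 23 in each replicate. These ends had the highest densities, with replicate means of 69.0 ± 1.41 peaks per Mb at the right end of III, 51.0 ± 1.41 at the left end of II, 47.0 ± 1.41 at the left end of IV and 46.0 at the right end of II (SD, n = 2 each). The right end of III stood above all others by much more than the replicates differed, while the left end of IV and the right end of II did not differ beyond that spread.

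The lower part of the order was less well resolved. The right end of V had 18 peaks in replicate 1 and 19 in replicate 2, the right end of IV 15 and 17, the left end of III 15 in each, and the left end of V 14 and 13. The ends of X were those on which the replicates differed most. Replicate 1 had 16 peaks at the left and 16 at the right end of X, whereas replicate 2 had 20 at the left and 11 at the right. In peaks per Mb the replicate means were 37.0 ± 1.41 at the right end of V, 36.0 ± 5.66 at the left end of X, 32.0 ± 2.83 at the right end of IV and 30.0 at the left end of III. They were 27.0 ± 1.41 at the left end of V and 27.0 ± 7.07 at the right end of X (SD, n = 2 each). Neighbours in this lower part of the order lay within the spread of the X ends. Across the 10 ends the replicate counts ranked alike, with a Spearman rho of 0.881, given as a description because the lists share chromosomes and protocol.

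The main question was whether the end zones differ from the 500 kb next to them on the inner side. The combined list averaged 88.4 ± 32.2 peaks per Mb in the end zones and 70.8 ± 25.4 in the next 500 kb (SD, n = 10 ends). The mean difference was 17.6 peaks per Mb (95% interval 4.00 to 31.2), a ratio of the means of 1.25, and 7 of the 10 ends had the higher value in the end zone. Replicate 2 averaged 40.2 ± 13.9 in the end zones and 30.2 ± 13.3 in the next zones (SD, n = 10), a difference of 10.0 (1.50 to 17.0) with 9 of 10 ends higher. Replicate 1 averaged 40.2 ± 12.98 in the end zones and 33.2 ± 13.3 in the next zones (SD, n = 10), a difference of 7 (-2.50 to 14.5) with 8 of 10 ends higher and 1 equal.

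These differences did not pass the threshold of 0.05 once the 12 tests were adjusted together. Exact two-sided sign-flip permutation tests over the 10 ends gave p = 0.0234 for the combined list, 0.0293 for replicate 2 and 0.125 for replicate 1, and Benjamini-Hochberg values of 0.176, 0.176 and 0.375. The result depended on the zones compared. Zones of 250 kb were set against the next 250 kb, so both lay inside the 500 kb end zone. This other contrast had the opposite sign in all 3 lists (-10.4, -6 and -2 peaks per Mb in the combined list, replicate 1 and replicate 2). Zones of 1 Mb, set against the next 1 Mb, take in the 500 kb next zones and so are another contrast too. There the difference passed in all 3 lists (adjusted exact permutation p of 0.0234, 0.0313 and 0.0234 for the combined list, replicate 1 and replicate 2). That adjustment covered the 12 tests of this setting only, not the other alternatives.

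**Figure D2:**
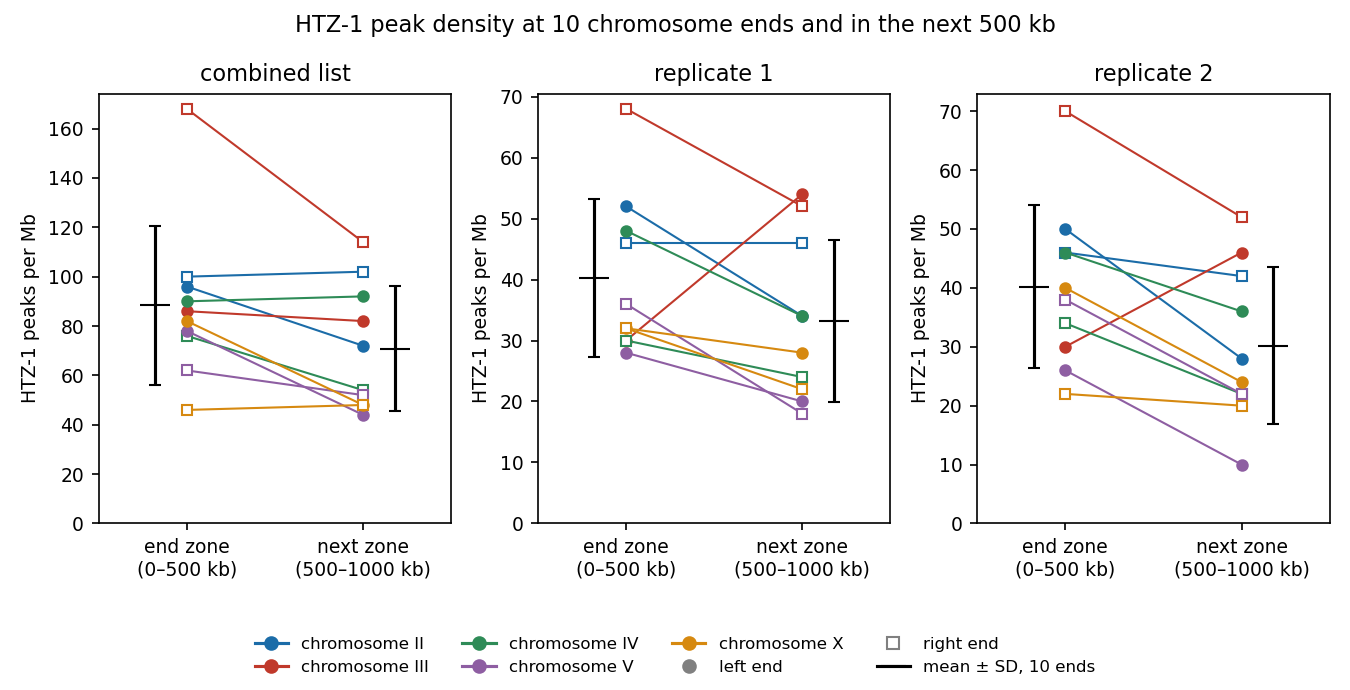
HTZ-1 peaks per Mb at each of 10 chromosome ends (lines join the end zone to the next 500 kb of the same end; black bars are means ± SD over 10 ends) in the combined list and both replicates. Most lines run downwards from the end zone to the next zone, and the left end of III runs upwards in both replicates.

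At the ends given here, chosen after their values were seen, both replicates had the same direction. At 3 of them it was that of the average. The left end of V had 14 peaks in its end zone and 10 in its next 500 kb in replicate 1, and in replicate 2 it had 13 in the end zone and 5 in the next. The right end of V had 18 peaks in the end zone and 9 in the next zone in replicate 1, and 19 in the end zone and 11 in the next in replicate 2. For the left end of II, replicate 1 had 26 in the end zone and 17 in the next, and replicate 2 had 25 in the end zone and 14 in the next. On the left side of III the order was the other way, with 15 peaks in the end zone and 27 in the next zone in replicate 1, and 15 in the end zone and 23 in the next in replicate 2. The combined list did not show this for the left end of III, with 43 peaks in the end zone and 41 in the next. Of these 43, 18 overlapped neither replicate list, as did 25.8% of all 442 end-zone peaks and 23.8% of all 5838 peaks. Whether this accounts for the difference between the lists was not tested.

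Covered length followed the counts. Combined-list peaks covered 7.16% ± 2.66 of the end zones and 5.53% ± 2.48 of the next zones (SD, n = 10). Replicate 1 peaks covered 11.0% ± 4.99 of the end zones and 8.55% ± 4.07 of the next zones, and replicate 2 peaks 10.3% ± 3.95 of the end zones and 7.63% ± 3.78 of the next zones (SD, n = 10 each). The right end of III had the most in all lists, with 13.1% in the combined list, 23.1% in replicate 1 and 19.0% in replicate 2. The least was at the right end of X, with 3.17%, 6.19% and 4.44%.

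The distance from the end at which sites were frequent was not a simple gradient. Over the 10 ends together the combined list had 72 peaks in the first 100 kb, then 87, 104, 77 and 102 in the following 100 kb steps up to 500 kb. The next 3 steps held 56, 64 and 56 peaks, and the last 2 steps before 1 Mb held 88 and 90. Replicate 1 had 33, 35, 45, 37 and 51 peaks in the 5 steps of the end zone, then 24, 31, 23, 44 and 44. Replicate 2 had 32, 42, 46, 32 and 49, then 19, 26, 24, 41 and 41. All 3 lists were therefore lowest between 500 and 800 kb, on the inner side of the limit that defines the end zone, and the spread between ends was large at each step.

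**Figure D3:**
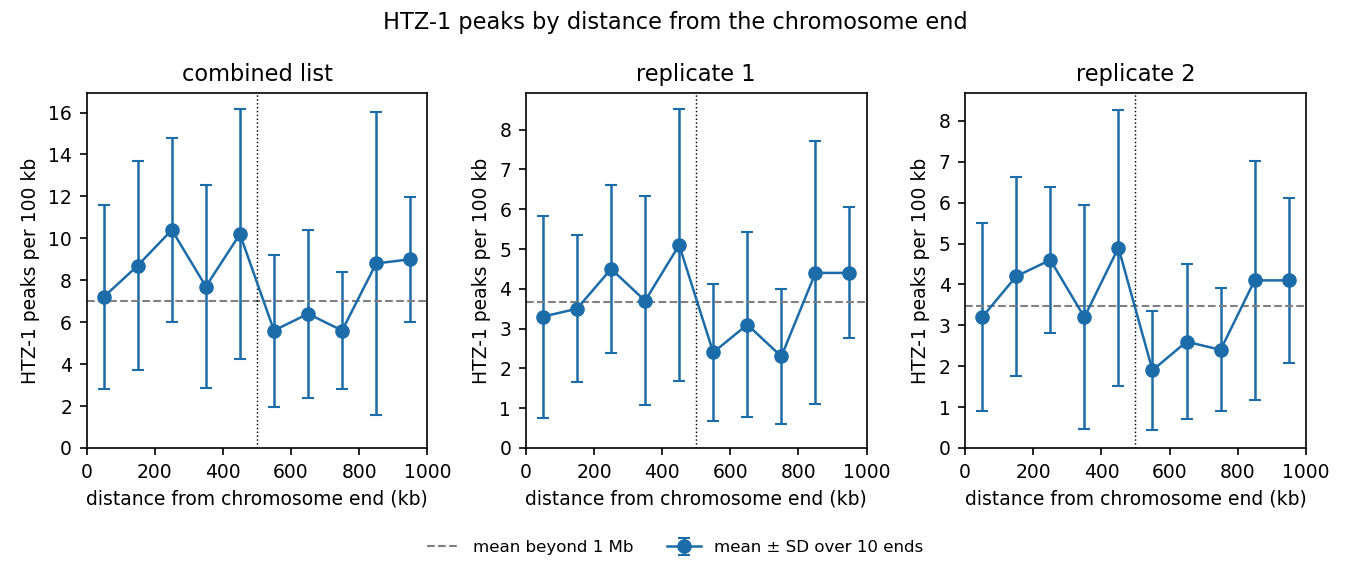
Mean number of HTZ-1 peaks per 100 kb (± SD over 10 ends) against distance from the chromosome end (kb); the dotted line marks 500 kb and the dashed line the mean density beyond 1 Mb. In the combined list the mean was 7.20 in the first 100 kb, 10.2 between 400 and 500 kb and 5.60 between 500 and 600 kb, and the bars overlap between neighbouring steps.

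Set against all of the rest of the same chromosome side, the end zones had the higher mean density in all 3 lists. Outside the end zones, each chromosome side up to its middle averaged 69.95 combined-list peaks per Mb, against which the end zones had 88.4, higher at 9 of 10 ends (exact sign-flip permutation p = 0.0137, adjusted p = 0.164). For replicate 1 the means were 40.2 in the end zones and 36.6 in the rest (exact permutation p = 0.334), and for replicate 2 they were 40.2 in the end zones and 34.4 in the rest (exact permutation p = 0.139). None of these passed after adjustment.

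The combined list had weakly scored peaks close to the last bases of several chromosomes, but none of these was found in both replicates. The outermost combined-list peak began within 1 kb of the end at 4 of 10 ends. On X it was X:1-314, with a score of 5.63, and it overlapped a replicate 2 peak at X:6-1100 that scored 89.48. No replicate 1 peak overlapped it, and the outermost peak of replicate 1 on that side began 33.3 kb from the end. On II it was II:588-1938 (score 6.42), on III the peak III:13783395-13783551 at the right end (score 2.60), and on IV the peak IV:17493471-17493824 at the right end (score 7.54). None of these 3 overlapped a replicate peak. The IV peak ended 31 bp past the WS220 length of that chromosome used here. The list's header names WS220, but with such a peak it is not settled that all of its positions follow that build, and its distances from the ends carry this doubt.

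Sites seen in both replicates lay further in. Closest to its end was the one at the left end of V, where the peaks V:6773-9860 in replicate 1 and V:6984-9891 in replicate 2 began 6.77 and 6.98 kb from the end. Their scores were 1168 and 773. Next came the right end of III, with a site 10.9 kb from the end in each replicate, at III:13766457-13772756 in replicate 1 and III:13767066-13772790 in replicate 2. These are wide peaks of 6300 and 5725 bp at the score of 3100, a tied value near the top of each replicate list with some peaks above it. The longest empty tip was at the right end of X, where the outermost peak stopped 107.7 kb from the end in the combined list, 107.2 kb in replicate 1 and 107.3 kb in replicate 2. It was the same site in all 3 lists, X:17610160-17611125 in the combined list, where it scored 62.08, and it was also the highest-scoring of the 23 peaks in that zone.

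Empty stretches inside the zones were measured up to the zone's limits, so one that crosses a limit is cut there. On the left side of X no list had a peak between 400 and 500 kb, and the longest empty stretch of the zone measured 110.5 kb in the combined list, 110.04 kb in replicate 1 and 109.9 kb in replicate 2, in each case up to the 500 kb limit. In replicate 2 it went on for 226.9 kb beyond that limit. Neither replicate had a peak between 400 and 500 kb on the left side of V, where the combined list had 4, none of them in both replicates. Over the 10 ends the longest empty stretch had a median of 97.0 kb in the end zones and 117.2 kb in the next zones in replicate 1, and of 97.9 kb in the end zones and 136.9 kb in the next zones in replicate 2. These medians were, for the combined list, 85.3 kb in the end zones and 84.9 kb in the next zones.

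The strongest site of each end zone was found in both replicates at all 10 ends. Strong peaks were in both throughout the list, since none of the 5838 peaks outside that class scored above 62.8. The count is therefore not particular to the end zones. The highest of the 10 was II:254279-255803, 255.0 kb from the left end, with a score of 191.61 and rank 9 of 5838. Its replicate peaks both stood at 3100. At the left end of III the strongest was III:85372-87915, 86.6 kb from the end, with a score of 179.25, and it too stood at 3100 in both replicates. At the right end of IV it was IV:17086450-17088541 (score 168.23), and at the left end of X it was X:238859-240252 (score 159.35), again with 3100 in both. A further 5 ends had their strongest peak between 152.01 and 162.92. They were III:13465048-13467154 at the right end of III, IV:389633-391371 at the left end of IV, II:14797540-14798943 at the right end of II, V:20743767-20745355 at the right end of V and V:310949-312294 at the left end of V. Among the 10 end zones, only that at the right end of X had no peak in the combined list's upper 10%. Its strongest, X:17610160-17611125, ranked 1503.

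The share of strong sites was near that of the whole list in the combined list and was not tested. Of the 442 end-zone peaks, 54 (12.2%) scored in the list's upper 10%, where the share over all 5838 peaks is 10.0% by construction. In the next zones the share was 9.04%. Over the same peaks, the median score percentile was 45.2 in the end zones and 50.7 in the peaks more than 1 Mb from an end. In replicate 1, 31 of 201 end-zone peaks (15.4%) scored 3100 or more, against 8.43% in the next zones and 12.8% over all 3017 peaks. In replicate 2 the count was 16 of 201 (7.96%), against 5.30% in the next zones and 4.91% over all 2850 peaks. They were unevenly shared between ends. For the combined list the left end of II held 10 of the 54, among 48 peaks at that end. The right ends of II, III and V held 7 each, among 50, 84 and 31 peaks. At the right end of III that share was below the 10.0% of the list. None lay at the right end of X in any list. Such peaks were rare elsewhere on X too, with 0 of 24 in each next zone of the combined list. Beyond 1 Mb from the ends they were 4 of 314 on each side of X. The left end of X held 4 among its 41 peaks.

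The typical rank of the sites did not differ detectably from that in the next zones. The median score percentile per zone averaged 46.2 ± 9.67 in the end zones and 45.2 ± 5.96 in the next zones of the combined list (SD, n = 10), a difference of 1.02 percentile points (95% interval -9.59 to 10.9, exact sign-flip permutation p = 0.822, adjusted p = 0.857). In replicate 1 the averages were 45.97 ± 11.0 in the end zones and 42.4 ± 19.6 in the next zones (difference 3.53, -13.7 to 20.6, exact permutation p = 0.629). In replicate 2 they were 46.9 ± 12.9 in the end zones and 42.3 ± 17.3 in the next zones (difference 4.56, -12.9 to 21.7, exact permutation p = 0.551). Single ends went far in either direction in both replicates. At the left end of II the median percentile was 64.2 in the end zone and 23.1 in the next zone in replicate 1, and 68.9 in the end zone and 26.7 in the next in replicate 2. For the left end of IV it was 42.1 in the end zone and 63.2 in the next in replicate 1, and 33.3 in the end zone and 61.4 in the next in replicate 2. Both zones of the right end of X ranked low, the end zone at 22.9 and the next zone at 18.9 in replicate 1, and the end zone at 32.1 and the next zone at 14.8 in replicate 2.

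Widths did not differ detectably either. The combined list's median width per zone averaged 603 ± 157 bp in the end zones and 562 ± 140 bp in the next zones (SD, n = 10), a difference of 41.4 bp (95% interval -152.5 to 226, exact sign-flip permutation p = 0.65, adjusted p = 0.78). The averages were 2334 ± 173 bp in the end zones and 2240.5 ± 273 bp in the next zones in replicate 1 (difference 93.05, -156 to 342, exact permutation p = 0.393). In replicate 2 the end zones averaged 2388 ± 274 bp and the next zones 2397 ± 427 bp (difference -8.60, -317 to 264, exact permutation p = 0.857). The end-zone medians ran from 435 bp at the left end of III to 916 bp at the right end of V in the combined list. Few peaks lay at the right end of V, and 21 of its 31 scored above the list's middle rank.

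Among the 5 widest end-zone peaks of the combined list, 3 were found in both replicates. These were IV:254805-257741 (2937 bp, score 140.44), V:125949-128876 (2928 bp, score 141.38) and IV:17332824-17335740 (2917 bp, score 102.94). At the V site the overlapping replicate peaks spanned 7995 bp in replicate 1 and 3935 bp in replicate 2, both at 3100. The other 2, which were the widest of all, lay at the left end of X and overlapped replicate 2 only. They were X:109602-114270 (4669 bp, score 20.02) and X:291958-295230 (3273 bp, score 13.48).

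The first of these X sites was high in replicate 2 and had no partner in replicate 1. In replicate 2 it was a peak of 6710 bp at X:108385-115094 with a score of 3100, tied at rank 17 of 2850. Replicate 1 had no peak over it, and its nearest peak was 2.83 kb away. Of the 186 replicate 2 peaks on the 5 chromosomes without a replicate 1 partner, this was the only one at 3100, and their median score was 98.01. The second X site was a replicate 2 peak of 6924 bp at X:289132-296055 with a score of 197.93, which lay 25.7 kb from the nearest replicate 1 peak. A further unpartnered replicate 2 peak in this zone, X:188881-192167, spanned 3287 bp and scored 200.63. Together with the peak at the tip of X, these made 4 of the 20 replicate 2 peaks at the left end of X, while all 16 replicate 1 peaks there had a replicate 2 partner. In the combined list, 9 of the 41 peaks at this end overlapped replicate 2 only and 1 overlapped replicate 1 only. Most of these 9 restate the 4 unpartnered replicate 2 peaks, which overlapped 1, 1, 3 and 3 combined-list peaks. The other 9 ends together had 17 of 401 peaks in replicate 2 only and 61 in replicate 1 only. Over all 5838 peaks the shares were 5.40% in replicate 2 only and 13.6% in replicate 1 only.

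Support from the replicates was close to that of the whole list. Of the 442 combined-list peaks in the end zones, 240 (54.3%, exact 95% interval 49.5% to 59.01%) overlapped both replicates, against 181 of 354 (51.1%, 45.8% to 56.5%) in the next zones and 57.2% over all 5838 peaks. These intervals cover counting error only. A further 62 overlapped replicate 1 only and 26 replicate 2 only, and 114 (25.8%) overlapped neither. The end-zone peaks in both had a median width of 1174 bp and a median score of 45.8, whereas those in neither had 257.5 bp and 5.40. Over all 5838 peaks the medians were 1222 bp and 54.8 for peaks in both, and 269 bp and 5.565 for those in neither. Among replicate 1 peaks 174 of 201 (86.6%) had a replicate 2 partner, against 133 of 166 (80.1%) in the next zones and 85.9% over all 3017. Among replicate 2 peaks the partnered number was 184 of 201 (91.5%), against 134 of 151 (88.7%) in the next zones and 93.5% over all 2850.

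Averaged over ends, the share of combined-list peaks in both replicates was 53.9% ± 10.6 in the end zones and 49.7% ± 9.54 in the next zones (SD, n = 10). The difference of 4.21 percentage points (95% interval -5.79 to 13.5) had 8 of 10 ends higher in the end zone and did not pass (exact sign-flip permutation p = 0.346, adjusted p = 0.693). It was 0.302 points with zones of 250 kb, 0.609 when only overlap with replicate 1 was asked for, 1.62 without II, 1.33 without V and 8.26 without III (exact permutation p = 0.0391, adjusted p = 0.156). For replicate 1 peaks the difference was 6.97 points (-1.76 to 16.3, exact permutation p = 0.117), and for replicate 2 peaks 2.53 points (-4.17 to 9.004, exact permutation p = 0.404). By end, the share in both replicates was highest at the right end of V, with 22 of 31 peaks (71.0%), and at the left end of IV, with 29 of 45 (64.4%). It was lowest at the left end of III, with 16 of 43 (37.2%), and at the left end of V, with 15 of 39 (38.5%). With 23 to 84 peaks a zone, the intervals of most ends overlap.

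**Figure D4:**
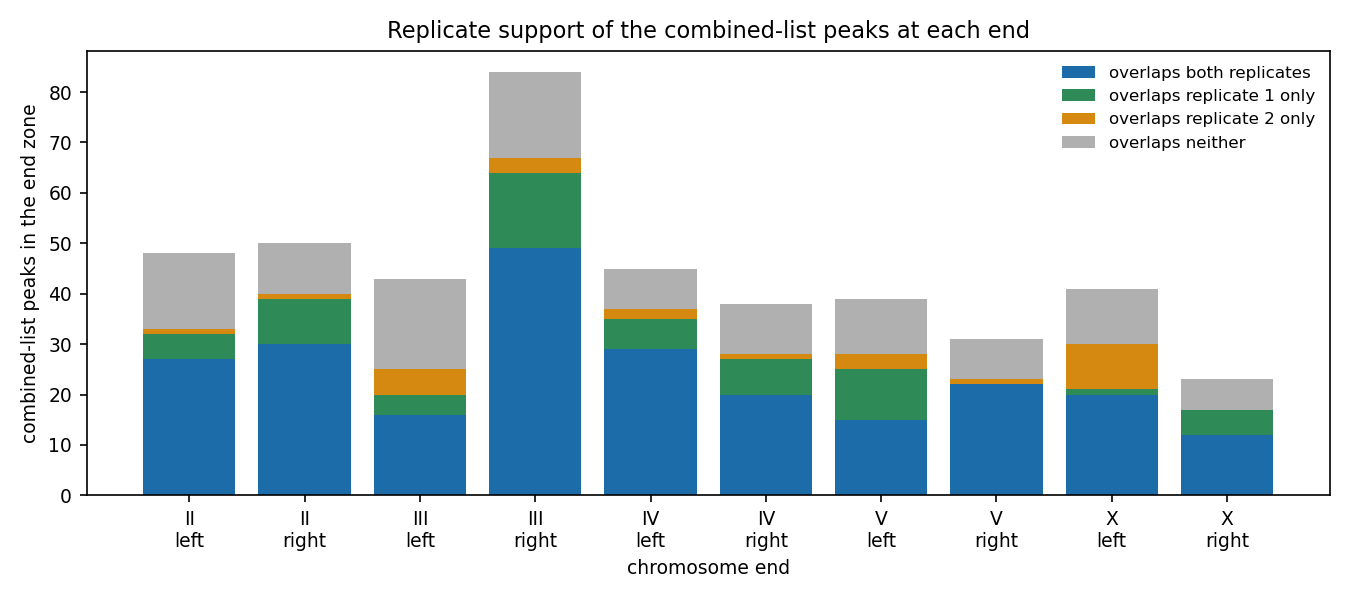
Number of combined-list peaks in each 500 kb end zone, divided by the replicate lists they overlap by at least 1 bp. Peaks in both replicates form the largest class at 9 ends, the left end of III has 16 in both and 18 in neither, and the left end of X has 9 in replicate 2 only.

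**Figure D5:**
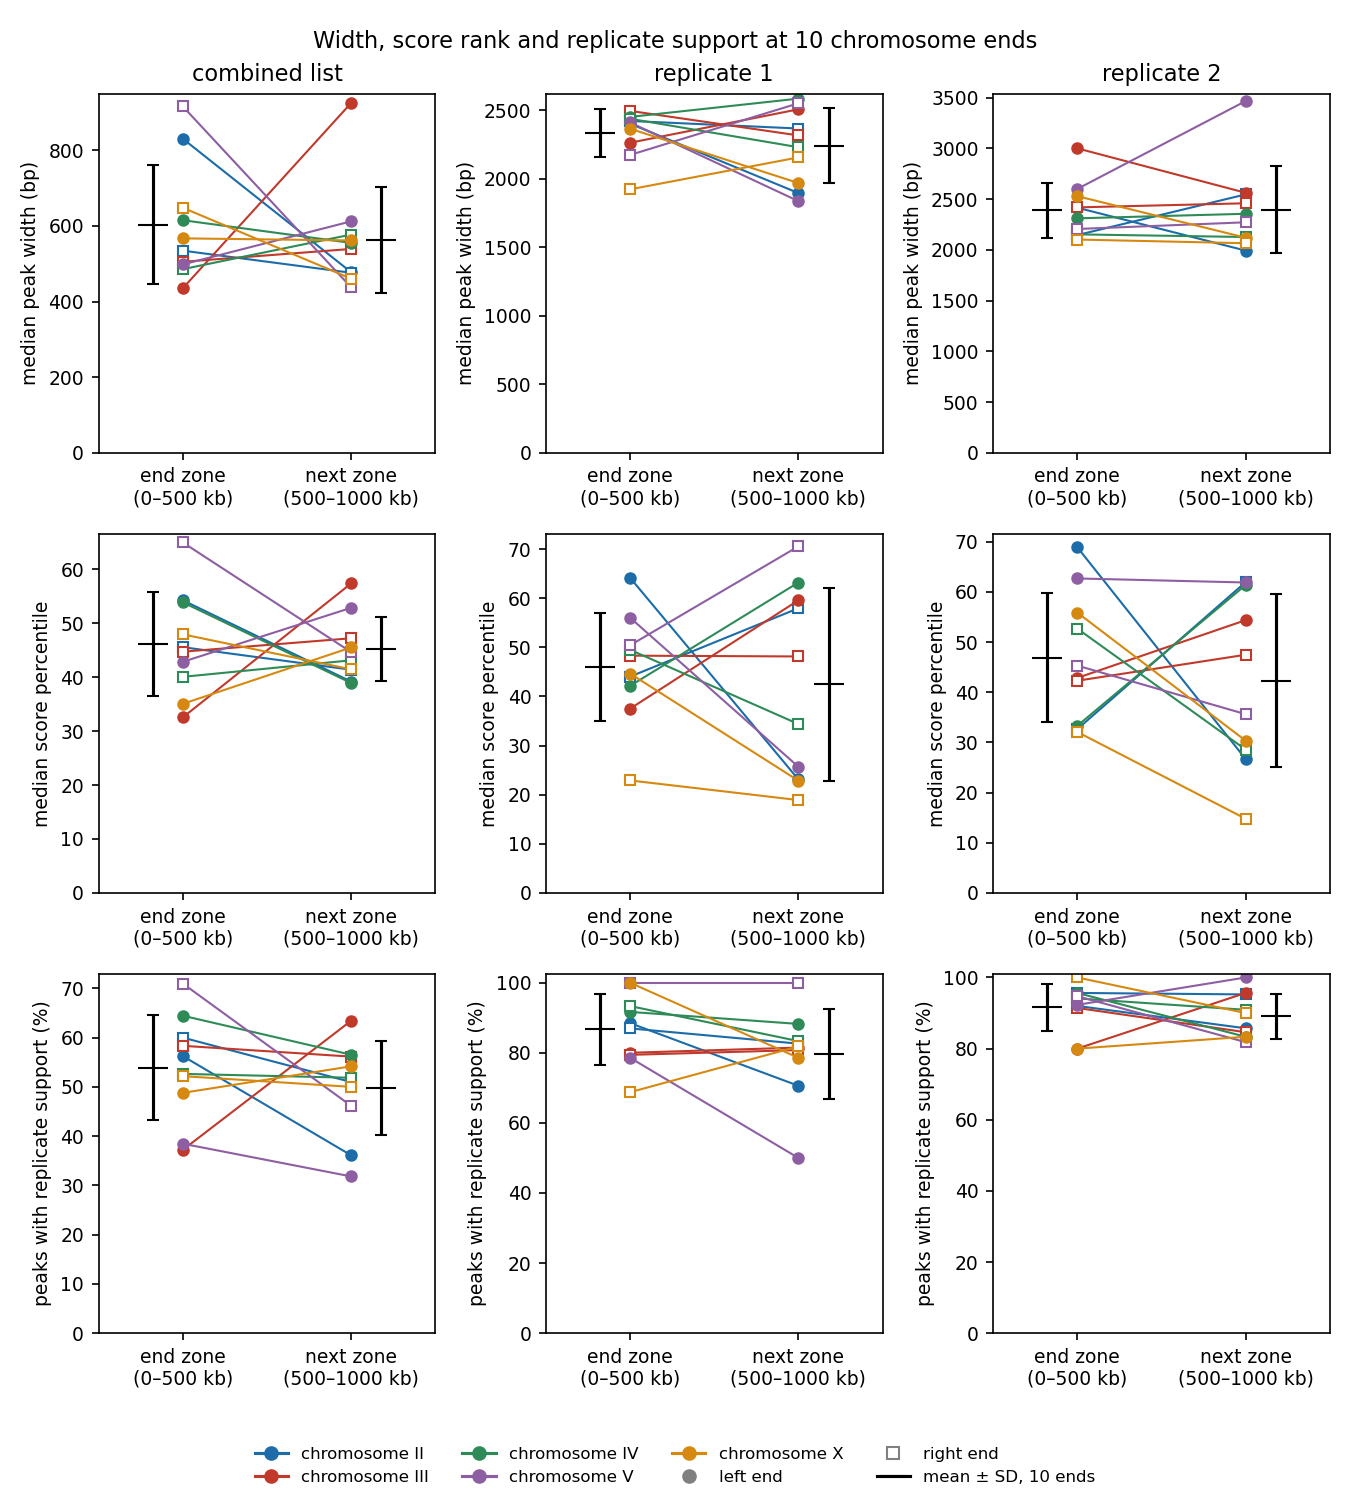
Median peak width (bp), median score percentile within the list and share of peaks with replicate support (%) at each of 10 ends, for the end zone and the next 500 kb, in 3 lists (black bars are means ± SD over 10 ends). For the combined list, support means both replicates, and for a replicate list it means the other replicate. Lines cross in every panel, and the means of both zones lie within the spread between ends.

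The end-zone peaks without a partner were mostly weak. In replicate 1, 27 of the 201 lacked one, with a median score of 94.8 (range 50.57 to 330), against 878 for those with a partner, and none of the 27 scored above the list's middle rank. In replicate 2, 17 lacked one, with a median of 129 (51.7 to 3100), against 610 for the rest, and the X:108385-115094 peak was the only one above the middle rank. Weak scores of such peaks were not particular to the end zones. Over all 3017 replicate 1 peaks, the 425 without a partner had a median of 94.8, against 1101 for those with one. Over all 2850 replicate 2 peaks, the 186 without a partner had a median of 98.01, against 660, and 14 of them were above the middle rank.

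The share of closely spaced sites was near that of the whole list in the combined list. Of the 442 combined-list members, 200 (45.2%) had another peak less than 1 kb away, against 45.8% in the next zones and 41.0% over all 5838. In replicate 1 the share was 19.4% in the end zones, 11.4% in the next zones and 17.3% over all peaks, and in replicate 2 it was 20.4% in the end zones, 13.9% in the next zones and 15.5% over all peaks. A replicate peak in the end zones held 2 or more combined-list peaks in 31.8% of cases in replicate 1 and 25.9% in replicate 2. In the next zones this was 33.7% in replicate 1 and 31.1% in replicate 2. Over all peaks it was 25.6% of 3017 in replicate 1 and 22.1% of 2850 in replicate 2. These shares are descriptions and were not tested.

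Left and right ends, and autosomes and X, are given as values only, since they hold few ends each. The 5 left ends had 86.4 ± 6.99 combined-list peaks per Mb and the 5 right ends 90.4 ± 47.7 (SD, n = 5 each). In this list the right ends, which hold both the densest and the sparsest zone, varied far more. The contrast was smaller in the replicates. Replicate 1 had 38.0 ± 11.1 at the left and 42.4 ± 15.6 at the right ends (SD, n = 5 each). Replicate 2 had 38.4 ± 10.2 at the left and 42.0 ± 17.9 at the right ends (SD, n = 5 each). In the combined list the ends of X had 82.0 peaks per Mb at the left and 46.0 at the right, and their next zones 48.0 each. The 8 autosome ends had 94.5 ± 32.1 and their next zones 76.5 ± 25.4 in the same list (SD, n = 8).

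The peaks on either side of the 500 kb limit are given here as a description. The last peak inside it lay between 388.9 kb (left end of X) and 499.1 kb (right end of V) from the end, with scores from 4.28 to 163.87 and a median of 50.3, and 7 of these 10 were in both replicates. The first peak outside lay between 501.1 and 541.8 kb, with scores from 2.93 to 35.77 and a median of 7.21, and 4 of 10 were in both replicates. Over all 5838 peaks the median score was 17.27 and 57.2% were in both replicates. With 10 peaks on each side, a change at the limit was not tested. The closest to the limit on the inside was V:20424598-20425550 (score 57), and on the outside X:17217480-17218061 (score 14.44).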

How the data were processed

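HTZ-1 ChIP-seq peaks came from 3 deposited lists, 1 for each of 2 ChIP replicates and 1 for the series as a whole. Per the submitters' processing notes reads were aligned with BWA to ce10, and per the file headers positions are on WormBase WS220. Per the files' source column the authors used MACS for the replicates and MACS v2 for the combined list. Thresholds, the use of the input and the way the combined list was made are not given in the sources used here. Each deposited peak has a score from the authors' caller whose scale is not given, so scores were used within a list, mainly as percentiles over the 5 chromosomes (ties averaged). The combined list presumably rests on reads of both replicates, so its overlap with them is not independent support.

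Peaks were put in zones by midpoint, with WS220 chromosome lengths. Zones needed at least 3 peaks for a median or share. Lists were compared by an overlap of at least 1 bp. The 12 comparisons used an exact two-sided sign-flip permutation test over the 10 ends (1024 sign patterns, smallest p = 0.00195), with Benjamini-Hochberg adjustment over the 12. The ends are parts of the same libraries and not samples, and both ends of a chromosome may not be independent, so p describes the spread between ends only. Intervals of differences are the shifts that this test does not reject. Intervals of shares are exact binomial. Named peaks are the highest-scoring, outermost and limit-flanking peaks of each end and the 5 widest; other peaks were chosen after their values were seen, as were the replicate peaks without a partner. The members and lists were chosen with earlier results of these data known. Alternatives were other zone widths, the rest of the chromosome side, the chromosome as the unit, leaving out chromosomes or a replicate, the top 50% by score and stricter overlap. Python 3.11.15, numpy 2.4.6, pandas 2.3.3 and scipy 1.17.1 were used.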

Additional observations from a re-analysis of the deposited data

How the results depend on the processing

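The main comparison had 2 of 12 unadjusted exact permutation p values below 0.05 and none after adjustment. Of 128 results under alternatives, 104 kept direction and side of the threshold, 3 passed it and 21 changed sign, and the cause was not tested. All values are end zone minus inner zone. Zones of 250 kb were set against the next 250 kb, which also lies inside the 500 kb end zone. They gave densities of -10.4, -6 and -2 peaks per Mb (combined list, replicate 1 and replicate 2), a combined-list width of -27.4 bp and a combined-list score rank of -1.93 percentile points. Zones of 1 Mb take in the 500 kb next zones of the main comparison. They gave densities of 17.1, 8.8 and 9.9 peaks per Mb, a combined-list width of -4.55 bp and a replicate 2 rank of -4.87. Against the rest of the chromosome side, widths were -123.5, -75.6 and 39.3 bp, ranks -4.23, -4.34 and -3.39, and support -2.94 points in the combined list and -1.73 in replicate 2. The top 50% by score gave a replicate 1 width of -331.6 bp. Leaving out single chromosomes gave widths of 0.25 to 117 bp in the combined list, 46.2 to 124 in replicate 1 and -66.4 to 106 in replicate 2, ranks of -1.14 to 4.68, 1.02 to 7.15 and 0.344 to 7.78 in the same order, and support of 1.33 to 8.26 points in the combined list. Leaving out replicate 1 meant using the replicate 2 list in place of the combined list, with a width of -8.60 bp, and leaving out replicate 2 meant using the replicate 1 list, with 93.05 bp. Joining peaks under 1 kb apart, an alternative chosen after seeing the data, left densities at 12.4, 4.6 and 8 peaks per Mb. With the chromosome as the unit p cannot go below 0.0625. Each test sets an end zone against the inner zone of the same end, so the tests are paired by end. No paired analysis was possible across sample groups because the 2 ChIP replicates form 1 group and no comparison with the input group was made. Read depth is unknown, so weak peaks cannot be weighed by their counts.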
